A study of Mus musculus with 15 samples.

Results

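The contact allergen dinitrofluorobenzene (DNFB) was set against the oxidant hydrogen peroxide (H2O2) in mouse dendritic cells, on 3 arrays for each compound, 6 of the 15 arrays of the series. The arrays were taken by their titles alone, and each of the 45037 probe sets other than the array's own controls was used. Of the genes that these probe sets name, 12701 were bright enough to be tested. The 3 groups described were cells given DNFB, cells given H2O2 and non-treated cells. All of them came from a single cell line with an A/J genetic background, which was derived from newborn epidermis, so a line and a strain other than these were not sampled. The labels call the control cells non-treated, while the text of the series speaks of a vehicle. The remaining 6 arrays held cells given DPI, an inhibitor of the formation of reactive oxygen species, alone or together with DNFB, and they entered only the estimate of the spread between arrays. Doses, exposure times and solvents are not given for these groups, so the compound cannot be told apart from its dose and its timing. Whether the 3 arrays of each group stand for 3 separate cultures is not stated, and the p-values reflect only the scatter among arrays, part or all of which may be technical.

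DNFB is an electrophile: its ring is attacked by the thiol and amino groups of proteins, and the modified proteins become the antigens of contact allergy. H2O2 leaves no such adduct and acts by oxidising thiols, above all those of peroxiredoxins and phosphatases, until it is removed by catalase, peroxiredoxins and glutathione peroxidases. Both reach the cysteine-rich sensor KEAP1, whose modification frees the transcription factor NRF2 to raise glutathione synthesis, thioredoxin recycling and heme breakdown. Both can also engage stress kinases, early growth response factors and NF-kB, the routes by which a dendritic cell in the skin matures, changes its surface receptors and leaves for the lymph node.

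The values were MAS5 signals, which are linear intensities with 1 value per probe set and array. Each array was rescaled to the same trimmed mean, 15 was added as a pseudocount, and group differences were fitted on the log2 scale with limma across all genes. A gene passed at a Benjamini-Hochberg adjusted p below 0.05, and the terms higher and lower are kept for genes that passed. Fold changes are those of DNFB over H2O2 on the log2(signal + 15) scale, which understates the change of dim genes, and every adjusted p that follows is from this limma fit. Across genes, which are no independent replicates, arrays of the same group had r between 0.969 and 0.973 for DNFB and between 0.962 and 0.965 for H2O2. The median SE of a difference was 0.197, and the number of arrays limits the precision.

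The label was checked against marker genes. All 10 dendritic cell markers listed were bright enough to be tested, and their summed signal was 96893 to 105937 with DNFB, 110911 to 126407 with H2O2 and 111187 to 125739 in non-treated cells. Of these, Cd74, the invariant chain of class II, had 25387 to 30010.4 with DNFB, against 33013 to 36491 with H2O2. The integrin Itgax went the other way, with 2857.1 to 3357.2 with DNFB and 1957.9 to 2393.2 with H2O2. The sum was carried mostly by bright class II genes such as Cd74 and H2-Aa. Flt3, a receptor of dendritic cell progenitors, was near the pseudocount, at 7.7 to 66.8 with DNFB and 16.5 to 99.6 with H2O2. None of the listed markers of keratinocytes, fibroblasts, melanocytes, T cells, B cells, mast cells or endothelial cells exceeded a summed signal of 517.5 per list on the DNFB arrays or 463.2 on the H2O2 arrays, and no list was at 0. The 4 measured neutrophil markers summed to 140.2 to 261.4 with DNFB and 537.2 to 583.2 with H2O2, almost all of the gap being Mpo, at 85.2 to 123.5 with DNFB and 335.4 to 531.0 with H2O2, and the part of such cells in the results was not tested. The ratio of 3' to 5' signal of beta-actin, a sign of RNA quality, was 1.32, 1.53 and 1.21 with DNFB and 1.26, 1.31 and 1.41 with H2O2, so the groups overlapped. In a cell population, fewer cells of a type and less RNA per cell cannot be told apart.

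Of the 12701 genes, 1873 passed (14.7%). DNFB was higher for 1111 of them (8.75% of all tested) and lower for 762 (6%). At least 2-fold, 249 genes were higher (1.96%) and 124 lower (0.976%). Folds of 4 and above were reached by 11 higher and 13 lower genes, and the early growth response factor Egr1 alone exceeded 8-fold. The median log2 difference of all tested genes was 0.011. Centring each array on its median in place of the trimmed mean gave 985 higher and 407 lower, so that the share of higher genes among those that passed was 70.8%, against 59.3% here. The values as deposited carry 2 scaling targets in unequal numbers, moved the median of all genes to -0.299 and gave 4 higher and 22 lower genes. Within the arrays of a single target, 492 genes were higher and 227 lower at the target of 250 (2 arrays with DNFB and 1 with H2O2), and 217 were higher and 136 lower at the target of 500 (1 array with DNFB and 2 with H2O2). The lone array of a group was there assumed to vary like the other groups. With the target as a block, 1226 were higher and 899 lower.

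**Figure D1:**
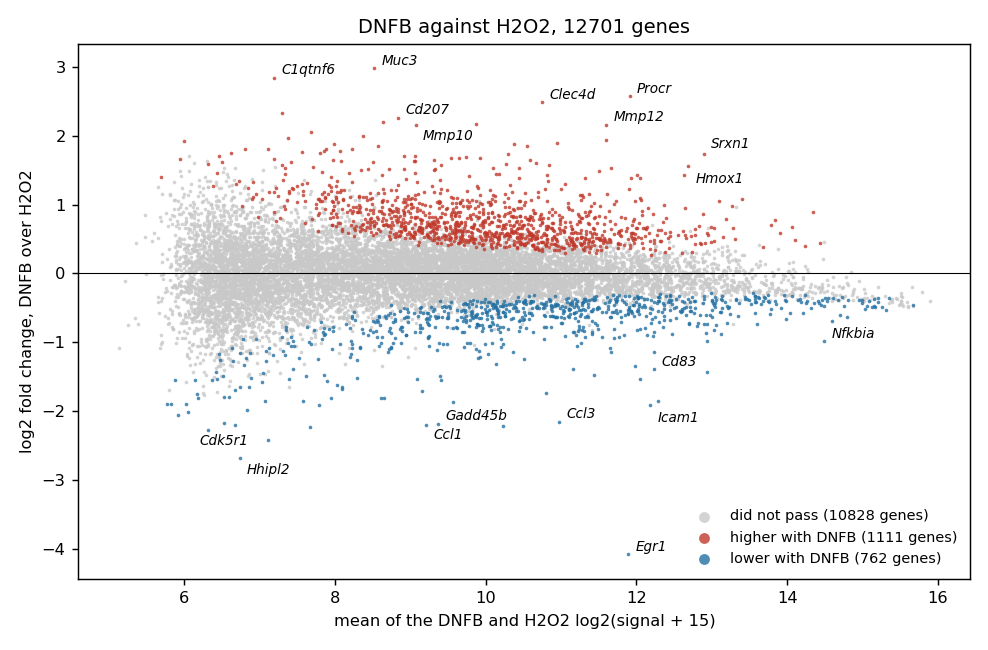
Each point is 1 of 12701 genes, with the mean of the DNFB and H2O2 log2(signal + 15) on the horizontal axis and the log2 fold change of DNFB over H2O2 on the vertical axis. Red points are the 1111 genes that were higher with DNFB, blue points the 762 that were lower and grey points those that did not pass. Egr1 lies alone at -4.08, and the brightest genes on the right lie mostly below 0.

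Brightness moved with the difference. Among the 170 genes with a mean log2 signal of 14 or more, the median difference was -0.32 and 90.0% were below 0, while among the 4237 genes between 8 and 10 the median was 0.07. The part of this drift in the results on bright genes was not tested, and quantile normalization, which forces the same distribution on every array, is given beside the lists whose members had a median log2 signal of 12 or more.

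Without treatment, the cells show on which side of them each compound lay. Against non-treated cells, DNFB had 1337 genes higher (10.5%) and 1768 lower (13.9%), and H2O2 had 1380 higher (10.9%) and 2211 lower (17.4%). Both sets of values share the non-treated arrays. For the 1111 genes higher with DNFB, the non-treated mean lay between the 2 compounds in 528 (47.5%), above both in 339 (30.5%) and below both in 244 (22%). For the 762 lower genes it lay between them in 372 (48.8%), above both in 194 (25.5%) and below both in 196 (25.7%). Over all tested genes these shares were 27.4%, 41.3% and 31.3%. No test was made of these positions, and a wide gap between the compounds leaves more room for a value between them.

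The windows around the start sites were searched for 7 short motifs, because groups of genes moved together. Windows ran from 250 bases before to 50 after the start, were taken from RefSeq (build GRCm38.p6, which is not the A/J genome), and were found for 10237 of the 12701 tested genes, with more than 1 for some genes. Both strands were read, and a gene was counted if any of its windows held the motif. The AP-1 type motif TGANTCA was in a window of 24 of the 200 genes that were at least 2-fold higher and had a window (12%), against 693 of all 10237 (6.8%). Among the 94 genes at least 2-fold lower it was in 9 (9.6%). The NF-kB site was in 26 of those 94 (27.7%), in 24 of the 200 higher genes (12%) and in 1250 of all genes (12.2%). Over the 900 of all higher genes that had a window the share with TGANTCA was 7.7%, and over the 620 of all lower genes the share with the NF-kB site was 15.2%. The median GC content of the windows was 58.6% for the 200 higher genes, 58.5% for the 94 lower genes and 60.3% for all. The antioxidant core TGACNNNGC, which overlaps TGANTCA where that motif reads TGACTCA and is followed by GC, was in 20% of the 200, 14.9% of the 94 and 16.7% of all. The E-box CACGTG was in 10.5% of the 200, 17% of the 94, 15.3% of the 620 lower genes and 11.3% of all. The other motifs were the cAMP response element TGACGTCA, the CArG box of serum response factor and the heat shock type motif GAANNTTC. They were in 4%, 1% and 6.5% of the 200, in 3.2%, 1.1% and 3.2% of the 94, and in 3.5%, 1.5% and 7% of all, in that order. No test was made of these shares. A match is a run of letters, not a measured binding site.

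Windows of 4 higher genes are printed because they hold TGANTCA and belong to a receptor, 2 proteases and an enzyme of thiol repair whose values follow. Capitals mark TGANTCA. They belong to Srxn1 (chr2:152105274-152105573, plus strand), Procr (chr2:155750967-155751266, plus strand), Mmp10 (chr9:7502092-7502391, plus strand) and Mmp12 (chr9:7347124-7347423, plus strand), each written along the strand of its gene.
Srxn1: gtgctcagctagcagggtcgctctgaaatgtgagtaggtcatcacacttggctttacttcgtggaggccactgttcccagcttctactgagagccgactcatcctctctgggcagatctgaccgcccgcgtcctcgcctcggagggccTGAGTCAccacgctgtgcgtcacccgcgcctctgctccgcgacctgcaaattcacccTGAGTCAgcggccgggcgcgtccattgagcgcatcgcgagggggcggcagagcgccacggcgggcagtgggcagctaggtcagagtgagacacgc
Procr: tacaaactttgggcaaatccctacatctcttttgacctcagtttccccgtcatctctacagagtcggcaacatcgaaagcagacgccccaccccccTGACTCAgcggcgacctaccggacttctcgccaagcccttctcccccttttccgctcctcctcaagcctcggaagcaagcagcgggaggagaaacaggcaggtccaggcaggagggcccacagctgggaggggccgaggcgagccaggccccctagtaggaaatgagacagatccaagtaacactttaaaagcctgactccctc
Mmp10: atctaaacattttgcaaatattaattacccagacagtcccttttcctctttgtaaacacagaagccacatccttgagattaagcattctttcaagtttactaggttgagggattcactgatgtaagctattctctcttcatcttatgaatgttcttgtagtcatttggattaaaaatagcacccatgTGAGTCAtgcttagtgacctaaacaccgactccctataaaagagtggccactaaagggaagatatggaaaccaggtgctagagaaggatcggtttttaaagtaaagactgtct
Mmp12: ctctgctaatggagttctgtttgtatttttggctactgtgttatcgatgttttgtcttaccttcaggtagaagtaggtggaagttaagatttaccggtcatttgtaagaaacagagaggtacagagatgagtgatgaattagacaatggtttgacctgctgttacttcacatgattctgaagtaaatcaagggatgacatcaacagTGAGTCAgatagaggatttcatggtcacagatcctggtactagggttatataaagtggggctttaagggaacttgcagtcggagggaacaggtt
Srxn1 holds the motif at 102 and at 45 bases before the start, Procr at 154, Mmp10 at 63 and Mmp12 at 44. In Procr the motif is followed by GC and so also reads as TGACNNNGC. The window of Srxn1 holds TGACNNNGC as well, 28 bases after the start, not marked here.

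Windows of 3 lower genes are printed with the NF-kB site in capitals, since Tnfaip3 and Ccl1 are inflammatory genes and Gbp2 an interferon-stimulated one, all 3 at least 2-fold lower. They are Tnfaip3 (chr10:19015361-19015660, minus strand), Ccl1 (chr11:82179763-82180062, minus strand) and Gbp2 (chr3:142620413-142620712, plus strand).
Tnfaip3: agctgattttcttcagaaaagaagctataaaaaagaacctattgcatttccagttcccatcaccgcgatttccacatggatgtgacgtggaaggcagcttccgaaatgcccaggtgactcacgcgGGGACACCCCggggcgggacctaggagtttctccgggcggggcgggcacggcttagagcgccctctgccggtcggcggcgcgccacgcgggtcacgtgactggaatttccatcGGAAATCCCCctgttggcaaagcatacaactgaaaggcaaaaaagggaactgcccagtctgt
Ccl1: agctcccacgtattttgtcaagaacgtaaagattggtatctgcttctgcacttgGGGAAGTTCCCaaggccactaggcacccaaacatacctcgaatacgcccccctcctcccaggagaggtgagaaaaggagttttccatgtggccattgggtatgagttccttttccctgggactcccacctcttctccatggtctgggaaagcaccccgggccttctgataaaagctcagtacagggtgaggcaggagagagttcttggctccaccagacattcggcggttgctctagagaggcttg
Gbp2: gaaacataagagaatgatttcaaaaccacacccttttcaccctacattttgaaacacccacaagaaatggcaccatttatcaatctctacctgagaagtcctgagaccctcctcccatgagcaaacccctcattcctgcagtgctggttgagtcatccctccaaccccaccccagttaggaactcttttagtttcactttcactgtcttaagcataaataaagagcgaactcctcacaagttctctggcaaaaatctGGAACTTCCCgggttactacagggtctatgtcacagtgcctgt
The sites of Tnfaip3 begin 125 and 12 bases before the start, and those of Ccl1 overlap each other at 196 and 195 bases before it. That of Gbp2 lies after the start. TGANTCA, not marked here, also begins 136 bases before the start in the window of Tnfaip3 and 102 before it in that of Gbp2. Mmp12, printed above for TGANTCA, holds an NF-kB site in a window that is not printed.

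Upward, Procr, the protein C receptor that is best known from endothelium, had the smallest adjusted p of all named genes. Its signals were 9973, 8431 and 9853 with DNFB, against 1726, 1370.0 and 1617 with H2O2 and 611, 683 and 677 in non-treated cells. The DNFB arrays stood far above both other groups, and the difference was 5.96-fold (log2 2.57 ± 0.13 SE, adjusted p = 1.78e-10). Clec4d, a C-type lectin of myeloid cells that binds mycobacterial glycolipid, had 3476, 4220.2 and 4516 with DNFB, against 586, 672 and 907 with H2O2 and 592, 841 and 823 in non-treated cells. Here the H2O2 and the non-treated arrays overlapped and only DNFB stood apart, 5.61-fold higher (log2 2.49 ± 0.31 SE, adjusted p = 2.01e-05).

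Cd207 encodes langerin, the lectin that forms the Birbeck granules of Langerhans cells. Its signals were 933, 1088 and 951 with DNFB, against 80.5, 354 and 243 with H2O2 and 92.6, 223 and 90.6 in non-treated cells. The DNFB arrays lay close together and above all others, while the H2O2 arrays spread widely and overlapped the non-treated ones. The difference was 4.81-fold (log2 2.27 ± 0.44 SE, adjusted p = 0.00147). The other listed markers of Langerhans cells did not follow. Epcam had 149.8 to 244.8 with DNFB and 235.4 to 421.2 with H2O2, and Cdh1 508.8 to 854.8 and 515.6 to 853.8. Itgae was dim and overlapped, at 41.5 to 112.7 and 39.1 to 135.8. Among these 4 markers, Cd207 was the one high on the DNFB arrays alone. Muc3, a membrane mucin of epithelia, was also high on the DNFB arrays alone, with 639.9, 1202 and 1368 with DNFB, against 150.2, 106 and 96.9 with H2O2 and 63.7, 178 and 31.8 in non-treated cells (7.9-fold, log2 2.98 ± 0.49 SE, adjusted p = 3.59e-04). Serpinb9, the inhibitor of granzyme B, had 3592, 3845 and 3921 with DNFB and 904, 1057 and 1049.6 with H2O2 (3.74-fold, log2 1.90 ± 0.15 SE, adjusted p = 1.14e-07). Serpinb1b, a relative of the leukocyte elastase inhibitor, was 4.17-fold higher (log2 2.06 ± 0.32 SE, adjusted p = 2.43e-04). Neither serpin passed between H2O2 and non-treated cells (for Serpinb9 log2 0.25, adjusted p = 0.252, and for Serpinb1b log2 0.12, adjusted p = 0.83).

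**Figure D2:**
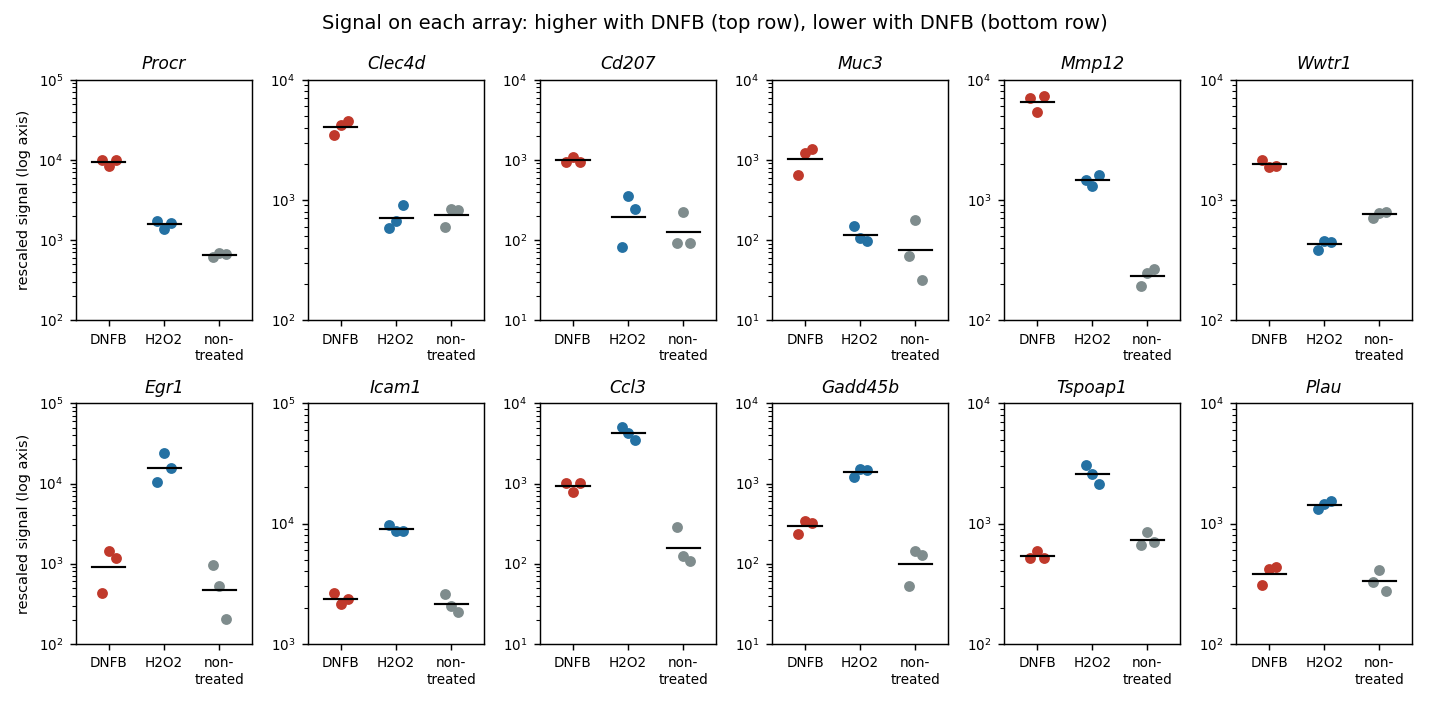
Rescaled signal on each array, on log axes, for 6 genes that were higher with DNFB (top row) and 6 that were lower (bottom row), with DNFB, H2O2 and non-treated cells from left to right. Points are arrays and bars are geometric means (n = 3 arrays a group). The DNFB and H2O2 points do not overlap in these 12 genes, and the largest differences were named on that condition. Of all tested genes, 17.6% were without overlap with DNFB above and 15.4% with DNFB below. In Icam1 and Plau the DNFB points lie among the non-treated ones.

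Other large differences lay in H2O2 cells that were below non-treated ones. C1qtnf6, a secreted protein of the C1q and TNF family, had 511, 319 and 329.6 with DNFB, against 50, 63.7 and 17.2 with H2O2 and 248, 309 and 271 in non-treated cells (7.16-fold, log2 2.84 ± 0.46 SE, adjusted p = 3.12e-04). H2O2 was far below both other groups (log2 -2.40, adjusted p = 4.82e-04 against non-treated cells), and DNFB did not pass against non-treated cells (log2 0.44, adjusted p = 0.561). Trp53inp1, a p53 target that takes part in autophagy, had 799, 649 and 517 with DNFB, against 149, 114 and 199 with H2O2 and 812, 797 and 816 in non-treated cells (4-fold, log2 2.0 ± 0.21 SE, adjusted p = 2.96e-06), and again the H2O2 arrays stood apart from both other groups. Wwtr1, the Hippo pathway coactivator also called TAZ, lay on both sides of non-treated cells, with 2149.8, 1881 and 1920.4 with DNFB, against 385, 458 and 443 with H2O2 and 704, 777 and 796 in non-treated cells (4.51-fold, log2 2.17 ± 0.17 SE, adjusted p = 1.14e-07). P2ry10, a lysophospholipid receptor, was likewise above non-treated cells with DNFB (log2 0.86, adjusted p = 8.00e-04) and below them with H2O2 (log2 -1.08, adjusted p = 7.65e-05). Gpr35, a receptor that responds to kynurenic acid, was 4.61-fold higher with DNFB than with H2O2 (log2 2.21 ± 0.41 SE, adjusted p = 0.00108).

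Ccr1, a receptor for inflammatory CC chemokines, was below non-treated cells with both compounds. It had 2099, 1392 and 1779 with DNFB, against 489.5, 605 and 503 with H2O2 and 3249, 2779.8 and 2782 in non-treated cells. Every DNFB array was above every H2O2 array and below every non-treated one (3.21-fold, log2 1.68 ± 0.22 SE, adjusted p = 5e-05).

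Downward, Egr1 led by a wide margin. This zinc finger factor, switched on within minutes by growth factors and stress, had 432, 1448 and 1185 with DNFB, against 10386, 23824 and 15408 with H2O2 and 952, 522 and 202 in non-treated cells. The DNFB arrays overlapped the non-treated ones, every H2O2 array was far above both, and DNFB was 17-fold lower (log2 -4.08 ± 0.42 SE, adjusted p = 2.29e-06). Cdk5r1, which encodes the p35 activator of the kinase CDK5, had 31.5, 113 and 21.3 with DNFB, against 236, 356 and 339 with H2O2 and 15.3, 15.5 and 5.06 in non-treated cells (5.34-fold lower, log2 -2.42 ± 0.40 SE, adjusted p = 4.26e-04). Tspoap1, a binding partner of the mitochondrial protein TSPO, had 518, 591 and 518 with DNFB, against 3071, 2579 and 2123 with H2O2 and 658, 855 and 698 in non-treated cells (4.63-fold lower, log2 -2.21 ± 0.18 SE, adjusted p = 1.14e-07). In each of these 3 genes the H2O2 arrays stood above both other groups.

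Gadd45b, a stress-induced brake on the cell cycle that binds MAP kinase kinases, was raised by either compound but further by H2O2. Its signals were 234, 344 and 318 with DNFB, against 1204, 1523 and 1476 with H2O2 and 52.5, 145 and 127 in non-treated cells (4.55-fold lower with DNFB, log2 -2.19 ± 0.24 SE, adjusted p = 5.64e-06). Against non-treated cells it stood at log2 1.43, adjusted p = 1.61e-04 with DNFB and at log2 3.61, adjusted p = 2.16e-09 with H2O2. Cyp1b1, a cytochrome P450 that the aryl hydrocarbon receptor controls, had 121, 104 and 36.9 with DNFB, against 403, 408 and 474 with H2O2 and 413, 378 and 467 in non-treated cells (4.69-fold lower, log2 -2.23 ± 0.44 SE, adjusted p = 0.00173). Its H2O2 and non-treated arrays overlapped, and the DNFB arrays lay below both. The lysophospholipid acyltransferase Lpcat4 had the same order, at 68, 20 and 21.9 with DNFB, against 159, 294 and 179 with H2O2 and 177, 218 and 203 in non-treated cells (4.6-fold lower, log2 -2.20 ± 0.36 SE, adjusted p = 3.70e-04), with 2 DNFB arrays near the pseudocount. The dim genes Hhipl2, Amhr2 and Etv4 were lower with log2 differences of -2.68, -2.18 and -1.99, and on several DNFB arrays their signal was near the pseudocount of 15, so their folds depend on it.

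In the defence against oxidants and electrophiles, the genes of glutathione synthesis and recycling were those most often higher with DNFB. Of 14 tested genes 7 were higher and 1 lower, against 8.75% and 6% of all tested genes. Each list count that follows is to be read beside these shares, and a count near them is no result about its list. The glutathione list had a median log2 difference of 0.652, against 0.011 over all genes. The count of 7 was found with each array left out in turn, while the 1 lower gene, the glutathione peroxidase Gpx1 (named after its value was seen), did not pass without DNFB replicate 1 or H2O2 replicate 2 or with median centring. Slc7a11, which imports cystine for glutathione synthesis, had 884, 939.6 and 631 with DNFB, against 386, 299.6 and 379 with H2O2 and 252, 164 and 194 in non-treated cells (2.24-fold, log2 1.16 ± 0.26 SE, adjusted p = 0.00496). DNFB arrays were highest, H2O2 arrays intermediate and non-treated arrays lowest, with no overlap.

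Glutathione is made in a first step by the ligase of the subunits Gclc and Gclm and in a second by Gss. Gclc had 5199, 4995 and 4837 with DNFB, against 3047, 2770.0 and 3473 with H2O2 and 2185, 2272 and 1954 in non-treated cells (1.62-fold, log2 0.70 ± 0.13 SE, adjusted p = 0.00109), again with the H2O2 arrays between the other groups. Gclm had 9906, 7828 and 9008 with DNFB, against 5096, 3895 and 4858 with H2O2 and 4556, 3585 and 4227 in non-treated cells (1.93-fold, log2 0.95 ± 0.14 SE, adjusted p = 1.63e-04), but here H2O2 and non-treated arrays overlapped. Gss was 1.71-fold higher (log2 0.78 ± 0.16 SE, adjusted p = 0.00301), and its signals with H2O2 did not differ from non-treated cells at the threshold (log2 -0.04, adjusted p = 0.902). Gsr, the reductase that turns oxidised glutathione back, had 2312, 2163 and 2247 with DNFB, against 1249.5, 1068 and 1458 with H2O2 and 1478, 1506 and 1441 in non-treated cells (1.78-fold, log2 0.84 ± 0.16 SE, adjusted p = 0.00175). On 2 of the 3 H2O2 arrays it was below all non-treated arrays. The glutaredoxin Glrx, which removes glutathione from proteins, was 1.82-fold higher (log2 0.87 ± 0.17 SE, adjusted p = 0.00213), and the glutathione conjugate exporter Abcc1 1.93-fold higher (log2 0.95 ± 0.10 SE, adjusted p = 3.73e-06). Of 13 glutathione S-transferases, the enzymes that couple glutathione to electrophiles such as dinitrohalobenzenes, 1 was higher (Gstt3) and none lower, and their median was -0.103. It did not pass without DNFB replicate 1, 2 or 3, without H2O2 replicate 1 or 3, or under quantile normalization.

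**Figure D3:**
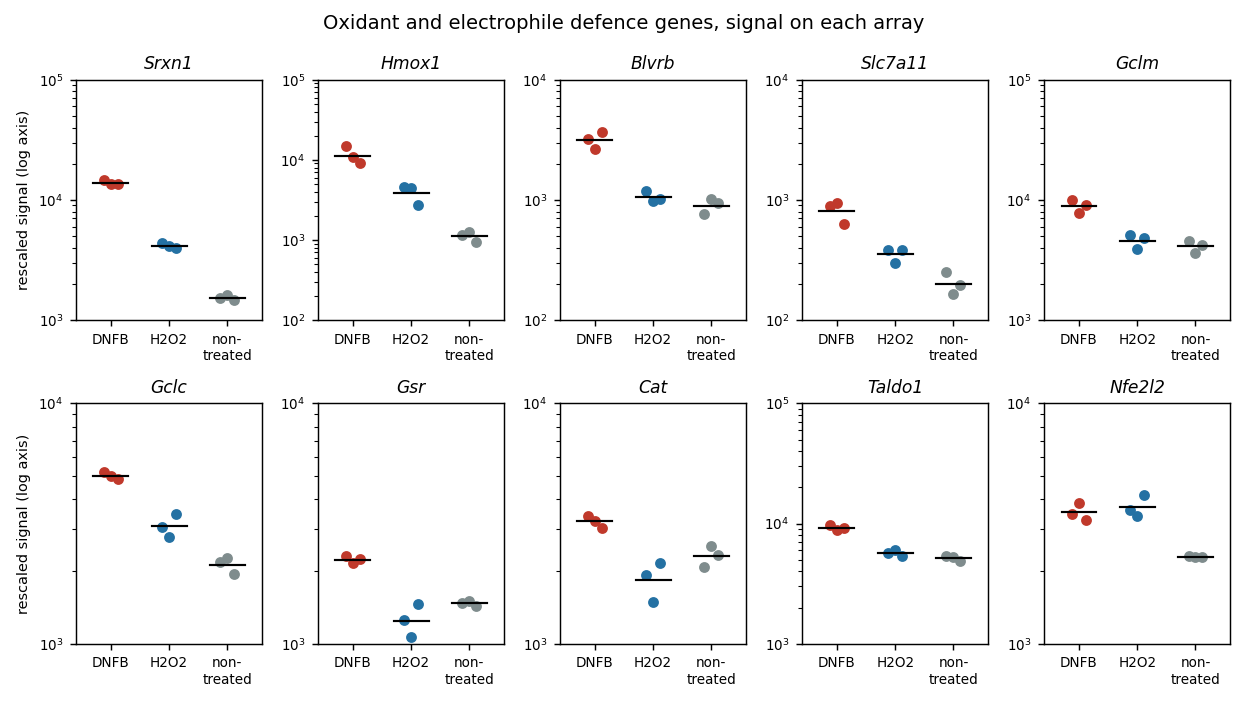
Rescaled signal on each array, on log axes, of 10 genes of oxidant and electrophile defence, with DNFB, H2O2 and non-treated cells from left to right (points are arrays, bars geometric means, n = 3 arrays a group). DNFB is above H2O2 on every array for 9 of them. The genes shown were picked with their values known, so this count is no result about such genes. Nqo1, Keap1 and Mt1, which did not pass, are not shown. Of all tested genes, 17.6% were without overlap with DNFB above. For Nfe2l2 the arrays of the 2 compounds overlap above the non-treated ones.

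In the thioredoxin and peroxiredoxin system 3 of 16 genes were higher and 1 lower. The lower count was 0 without DNFB replicate 3 or H2O2 replicate 2 or with median centring, and 2 without H2O2 replicate 1. Srxn1, the sulfiredoxin that reactivates peroxiredoxins after they have been over-oxidised by peroxide, had 14527, 13619.8 and 13680.5 with DNFB, against 4413, 4134 and 3970.2 with H2O2 and 1532, 1621 and 1457 in non-treated cells. The 3 groups formed separate steps with DNFB on top, and the difference between the compounds was 3.33-fold (log2 1.74 ± 0.13 SE, adjusted p = 5.87e-08). Txnrd1, the cytosolic thioredoxin reductase, differed less, with 15578, 15317 and 14239.9 with DNFB and 11721, 11069 and 11733 with H2O2 (1.31-fold, log2 0.39 ± 0.11 SE, adjusted p = 0.0222). It no longer passed without DNFB replicate 1 (log2 0.36), without DNFB replicate 2 (0.37), without H2O2 replicate 2 (0.36) or with the mean of its probe sets (0.62). Sesn3, a sestrin that limits growth signalling, was 1.82-fold higher (log2 0.86 ± 0.15 SE, adjusted p = 7.05e-04) and lay below non-treated cells with H2O2 (log2 -1.02, adjusted p = 3.96e-05).

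Of 11 tested genes of superoxide and peroxide removal and related proteins 3 were higher and 2 lower, with a median of 0.064. Peroxiredoxins and glutathione peroxidases were counted in other lists. The count of higher genes was 1 without DNFB replicate 2, H2O2 replicate 1 or H2O2 replicate 2, and that of lower genes was 1 without DNFB replicate 1, DNFB replicate 2, H2O2 replicate 1 or H2O2 replicate 2 or with median centring. Cat, the catalase that breaks down H2O2, was among the higher ones and had 3408, 3256 and 3042 with DNFB, against 1925, 1491 and 2174 with H2O2 and 2092, 2557 and 2339 in non-treated cells (1.75-fold, log2 0.81 ± 0.13 SE, adjusted p = 3.38e-04). DNFB arrays were above all others, and 1 of the H2O2 arrays lay among the non-treated ones. The selenoprotein Selenow was lower with DNFB, at 4967, 5679 and 4964 with DNFB and 7940.2, 9958 and 7842 with H2O2 (1.64-fold lower, log2 -0.71 ± 0.14 SE, adjusted p = 0.00199), but not with the mean of its probe sets (-0.51).

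Heme breakdown and iron had 3 of 18 genes higher and 1 lower (22.2% passed, against 14.7% of all tested genes). Hmox1, the heme oxygenase that opens the heme ring, had 14672, 10850.3 and 9082 with DNFB, against 4566, 4503 and 2737 with H2O2 and 1166, 1268 and 932 in non-treated cells. No array of one group overlapped another, and DNFB was 2.94-fold above H2O2 (log2 1.56 ± 0.28 SE, adjusted p = 7.46e-04). Blvrb, which encodes biliverdin reductase B, had 3196, 2675 and 3695 with DNFB, against 1179.6, 970.3 and 1016 with H2O2 and 758, 1020.1 and 936 in non-treated cells (2.98-fold, log2 1.57 ± 0.21 SE, adjusted p = 3.98e-05), with no difference between H2O2 and non-treated cells at the threshold (log2 0.22, adjusted p = 0.467). The heme transporter Slc48a1 was 1.78-fold higher (log2 0.83 ± 0.12 SE, adjusted p = 1.09e-04). The transferrin receptor Tfrc, which brings iron into the cell, was 1.64-fold lower (log2 -0.71 ± 0.12 SE, adjusted p = 5.54e-04).

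Of 14 regulators and partners of NRF2, 1 was higher (Bach1) and 2 lower, of which 1 (Maff) passed with each array left out, and 1 was lower with median centring. Nfe2l2, the gene of NRF2, had 3460.4, 3852 and 3287 with DNFB, against 3586, 3414 and 4168 with H2O2 and 2316, 2289 and 2294 in non-treated cells, so both compounds were above non-treated cells and their arrays overlapped (log2 -0.07 ± 0.10 SE, adjusted p = 0.721 between the compounds). Keap1, the sensor that holds NRF2, had a log2 difference of 0.17 that did not pass (adjusted p = 0.493). Bach1, a repressor of Hmox1, was 1.6-fold higher with DNFB (log2 0.68 ± 0.12 SE, adjusted p = 5.43e-04), and the small MAF protein Maff was 1.72-fold lower (log2 -0.78 ± 0.14 SE, adjusted p = 9.96e-04). Of 15 genes of quinone and aldehyde detoxification 3 were higher and 1 lower. The count of higher genes fell to 1 without DNFB replicate 1, DNFB replicate 3 or H2O2 replicate 2. Ptgr1, a reductase of reactive lipid aldehydes and prostaglandins, was 1.92-fold higher (log2 0.94 ± 0.16 SE, adjusted p = 3.97e-04). Nqo1, the quinone reductase often used as a readout of NRF2, had 213, 145 and 193 with DNFB, against 101, 49.5 and 111 with H2O2 and 81, 101 and 62.6 in non-treated cells and did not pass (log2 1.0 ± 0.55 SE, adjusted p = 0.253). The transaldolase Taldo1 of the pentose phosphate pathway, the source of NADPH for these reductases, was 1.62-fold higher (log2 0.70 ± 0.10 SE, adjusted p = 9.69e-05), but the list of 16 such genes had 1 higher and 1 lower in all. Metallothionein Mt1 had 31877, 28238 and 28519 with DNFB and 29894, 30737 and 27057 with H2O2 and did not pass (log2 0.02 ± 0.11 SE, adjusted p = 0.956).

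Of 27 immediate early transcription factors 13 were lower with DNFB and 5 higher, against 6% and 8.75% of all tested genes, and the median was -0.442. With 1 array left out, 9 to 12 were lower and 5 higher, and with median centring 11 were lower and 5 higher. The other early response lists, described after these factors, had fewer members that passed. Besides Egr1, its relatives Egr2 and Egr3 were lower. Egr2 had 68.3, 123 and 123 with DNFB, against 377, 262 and 310.1 with H2O2 and 63.3, 67.1 and 68.6 in non-treated cells (2.81-fold, log2 -1.49 ± 0.21 SE, adjusted p = 1.00e-04) and Egr3 had 354, 393 and 417 with DNFB, against 1341, 945 and 1083 with H2O2 and 429, 397 and 497 in non-treated cells (2.8-fold, log2 -1.49 ± 0.15 SE, adjusted p = 1.93e-06). In both the DNFB arrays were level with or close to the non-treated ones, and only H2O2 stood above. A second, dimmer probe set of Egr3 had a log2 difference of 0.64 and did not pass, and neither did the mean of its probe sets (-0.42).

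Ier2, an early gene of growth factor signalling, was 3.61-fold lower, with 2494, 2499 and 2896 with DNFB, against 8683, 11279 and 8758 with H2O2 and 1919, 1507 and 1233 in non-treated cells (log2 -1.85 ± 0.15 SE, adjusted p = 1.15e-07). Atf3, a stress factor of the ATF and CREB family, was raised by both compounds, with 641, 802 and 610.4 with DNFB, against 1565, 1948 and 1231 with H2O2 and 72.2, 156 and 83.8 in non-treated cells. Its H2O2 arrays were the highest and its non-treated arrays the lowest (2.26-fold lower with DNFB, log2 -1.18 ± 0.22 SE, adjusted p = 0.00109). Fos had 714, 1431 and 1266 with DNFB and 1530.2, 2745 and 1443 with H2O2 and did not pass (log2 -0.73 ± 0.28 SE, adjusted p = 0.0853), and Jun had 9461, 6530.5 and 6372 with DNFB and 5290.3, 8904 and 5029 with H2O2, with overlapping arrays (log2 0.24 ± 0.21 SE, adjusted p = 0.498). Crem, a cAMP response modulator, stood out on the higher side, with 1869, 1822 and 1963 with DNFB, against 824, 612 and 635 with H2O2 and 454, 486 and 419 in non-treated cells (2.72-fold, log2 1.44 ± 0.17 SE, adjusted p = 1.01e-05).

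Of 20 phosphatases and feedback inhibitors of MAP kinases 6 were lower and 2 higher, and with median centring 2 were lower and 2 higher. The 6 lower genes became 3 without DNFB replicate 1, DNFB replicate 3 or H2O2 replicate 1, and 2 without H2O2 replicate 2. Dusp1, a nuclear phosphatase of the stress kinases p38 and JNK, had 1875, 2720.3 and 2040.5 with DNFB, against 803, 1318 and 849 with H2O2 and 149, 148 and 95.5 in non-treated cells (2.24-fold higher, log2 1.17 ± 0.23 SE, adjusted p = 0.00199). Dusp4, a nuclear phosphatase, was 1.57-fold higher (log2 0.65 ± 0.12 SE, adjusted p = 7.29e-04). Dusp6, the cytoplasmic phosphatase of ERK, had the opposite order, with 3709, 3819.9 and 2899 with DNFB, against 6092, 6730.5 and 6693 with H2O2 and 10342, 8178 and 8369.5 in non-treated cells (1.88-fold lower, log2 -0.91 ± 0.14 SE, adjusted p = 2.21e-04). Non-treated cells had the most Dusp6 and DNFB-treated cells the least. Spry2, a sprouty inhibitor of receptor signalling to ERK, was 1.8-fold lower (log2 -0.85 ± 0.19 SE, adjusted p = 0.00429), but not with the mean of its probe sets (-0.49). Of 16 genes of the GADD45 and BTG families and related growth brakes 2 were higher and 2 lower, with a median of -0.135, and 1 was higher without DNFB replicate 1, 2 or 3 or without H2O2 replicate 1 or 2. The kinase Sgk1, which is turned on by glucocorticoids and by cell stress, was 3.11-fold higher, with 1045, 1008 and 736 with DNFB, against 205, 401 and 281 with H2O2 and 67.7, 98.6 and 48.7 in non-treated cells (log2 1.64 ± 0.23 SE, adjusted p = 8.67e-05). The stress-responsive gene Ndrg1 was 1.69-fold lower (log2 -0.76 ± 0.14 SE, adjusted p = 9.88e-04).

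**Figure D4:**
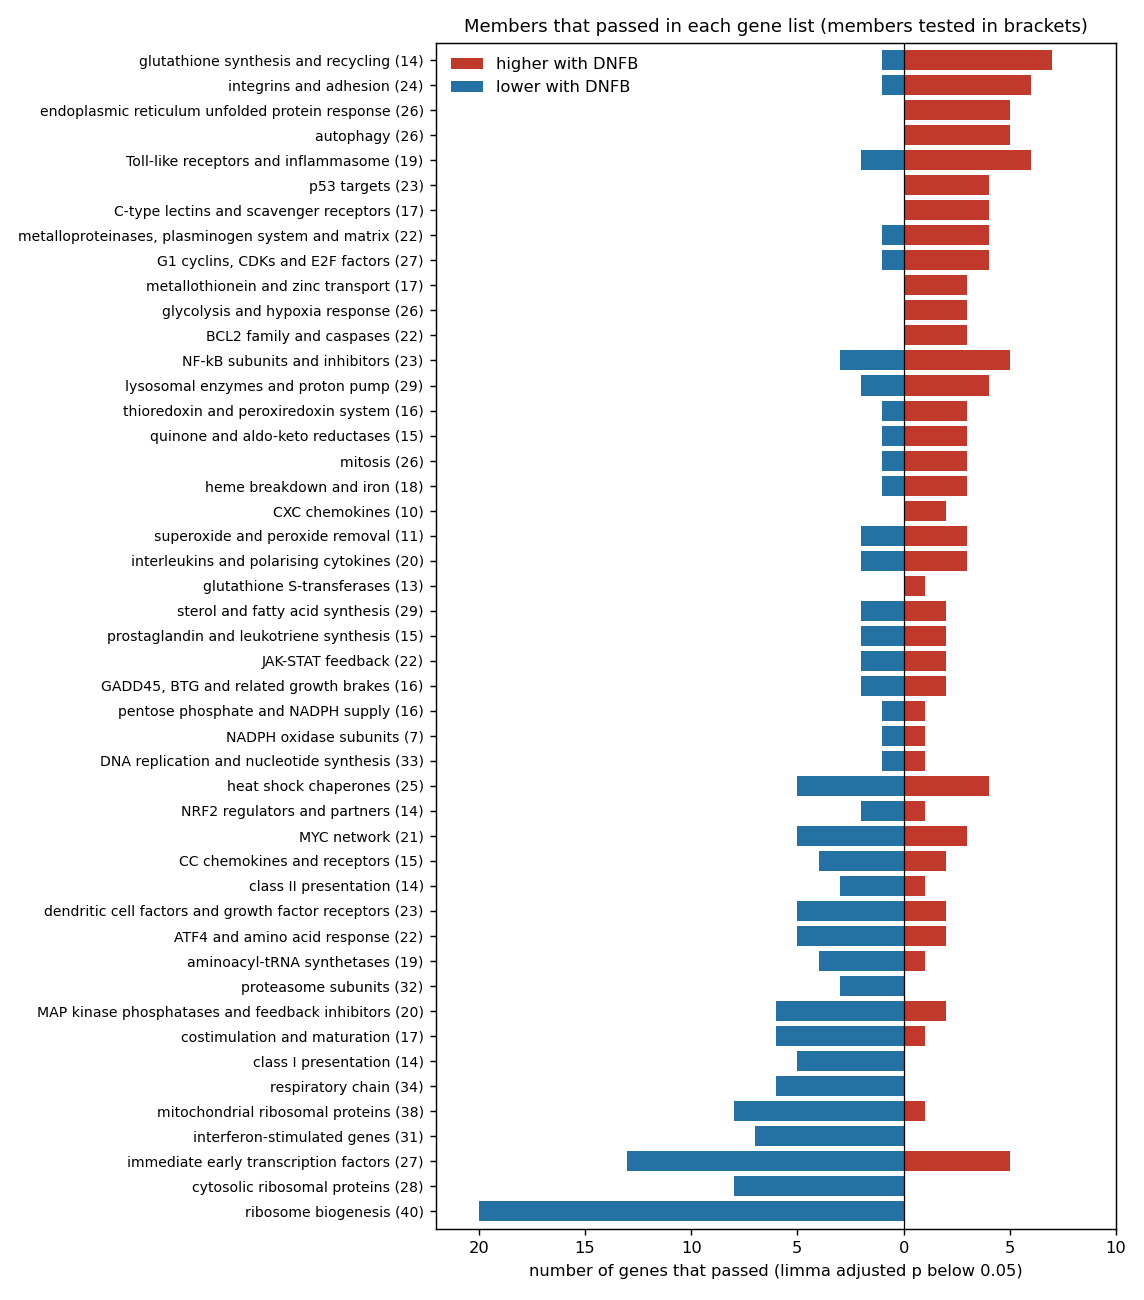
Bars give the number of genes of each list that were higher (red, to the right) or lower (blue, to the left) with DNFB than with H2O2 at an adjusted p below 0.05, and the number in brackets is the number of members tested. Glutathione synthesis and recycling is at the top with 7 higher and 1 lower, and ribosome biogenesis at the bottom with 20 lower.

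The maturation genes that passed were mostly lower with DNFB. Of 17 tested genes of costimulation and maturation 6 were lower and 1 higher, with a median of -0.295, and 4 to 6 were lower with 1 array left out. Icam1, the adhesion ligand that holds the T cell in contact, had 2665, 2135 and 2347 with DNFB, against 9673, 8734 and 8659 with H2O2 and 2608, 2079.8 and 1838 in non-treated cells (3.78-fold lower, log2 -1.92 ± 0.15 SE, adjusted p = 8.29e-08). DNFB did not pass against non-treated cells here (log2 0.14, adjusted p = 0.563), and every H2O2 array was above both. Cd83, a surface marker of mature dendritic cells, had 2754, 3299 and 2869.7 with DNFB, against 7759.9, 7864 and 7767 with H2O2 and 624, 584 and 423 in non-treated cells. Both compounds stood above non-treated cells, with H2O2 well above DNFB (2.62-fold lower, log2 -1.39 ± 0.13 SE, adjusted p = 1.01e-06). Cd40, the receptor through which helper T cells license the dendritic cell, showed the same steps, with 1826, 1646 and 1652 with DNFB, against 3421, 2859.6 and 2976 with H2O2 and 1182, 997 and 968 in non-treated cells (1.8-fold lower, log2 -0.85 ± 0.14 SE, adjusted p = 3.89e-04). Marcksl1, a regulator of the actin cortex, was 2.11-fold lower (log2 -1.08 ± 0.14 SE, adjusted p = 4.5e-05).

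The ligands of CD28, Cd80 and Cd86, were not lower. Cd86 was the 1 gene of the list that was higher with DNFB, at 4307, 4981 and 3475 with DNFB, against 2552, 2886 and 2954 with H2O2 and 2397, 3482 and 2742 in non-treated cells (1.5-fold, log2 0.59 ± 0.16 SE, adjusted p = 0.0166). It no longer passed without DNFB replicate 1 (log2 0.57), without DNFB replicate 2 (0.47), without H2O2 replicate 1 (0.53) or with the mean of its probe sets (0.39). For Cd80 the outcome depended on the probe set. The brightest of its 3 kept probe sets, which stands for the gene here, had 2800.0, 2899 and 2320.4 with DNFB, against 2590.4, 2086 and 2405 with H2O2 and 424, 463 and 417 in non-treated cells. On it both compounds stood above non-treated cells, and their arrays overlapped (log2 0.18 ± 0.16 SE, adjusted p = 0.524 between them). The other probe sets were higher with DNFB in a limma fit over all kept probe sets, with log2 differences of 0.85 (adjusted p = 0.00794) and 1.34 (adjusted p = 0.00746). The mean of the 3 also passed, at 0.79.

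Regulators of NF-kB passed in both directions. Of 23 tested subunits, inhibitors and adaptors 5 were higher and 3 lower, and with 1 array left out 4 to 5 were higher and 2 to 3 lower. Nfkbia, which encodes the inhibitor IkB alpha and is itself induced by NF-kB, had 15330.5, 16594 and 17091 with DNFB, against 33710.2, 31675 and 31702 with H2O2 and 9161, 10860.4 and 9155 in non-treated cells (1.98-fold lower, log2 -0.99 ± 0.13 SE, adjusted p = 4.03e-05). Tnfaip3, the ubiquitin-editing enzyme A20, had 627, 691 and 561 with DNFB, against 1362, 1710.4 and 1365 with H2O2 and 285, 379 and 279 in non-treated cells (2.32-fold lower, log2 -1.22 ± 0.16 SE, adjusted p = 3.98e-05). For both, H2O2 arrays were the highest, DNFB arrays intermediate and non-treated arrays the lowest, without overlap. Cyld, a deubiquitinase that also restrains NF-kB, was instead 1.97-fold higher, with 4095, 4559 and 3656 with DNFB, against 2135, 1959 and 2125 with H2O2 and 2127, 2787 and 2785 in non-treated cells (log2 0.98 ± 0.16 SE, adjusted p = 3.82e-04). Traf1, an adaptor of TNF receptors, was 2.63-fold higher, with 4797, 3891 and 3743 with DNFB, against 1651, 1698 and 1350.3 with H2O2 and 202, 279.5 and 195 in non-treated cells (log2 1.39 ± 0.32 SE, adjusted p = 0.00523).

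Of 15 CC chemokines and receptors 4 were lower, all of them ligands, and 2 higher, both of them receptors. Without H2O2 replicate 1 2 were lower, and with any 1 array left out, with quantile normalization or with median centring 1 was higher. Ccl3, a chemokine for monocytes and T cells, had 1021, 789 and 1027 with DNFB, against 5136, 4233 and 3518 with H2O2 and 284, 126 and 108 in non-treated cells (4.46-fold lower, log2 -2.16 ± 0.26 SE, adjusted p = 1.64e-05). Both compounds were above non-treated cells and H2O2 was above DNFB on every array. Ccl1, the ligand of CCR8, lay on both sides of non-treated cells, with 227, 292 and 266 with DNFB, against 1376, 1187 and 1197 with H2O2 and 619, 456 and 511 in non-treated cells (4.6-fold lower, log2 -2.20 ± 0.19 SE, adjusted p = 3.43e-07). The monocyte chemokine Ccl2 was 1.89-fold lower, with 407, 402 and 475 with DNFB, against 1156, 752 and 629 with H2O2 and 1220.4, 808 and 709.6 in non-treated cells (log2 -0.92 ± 0.22 SE, adjusted p = 0.00773), and no longer passed without H2O2 replicate 1 (log2 -0.67). Of 10 CXC chemokines and receptors 2 were higher and none lower. Cxcl3, a ligand of CXCR2 on neutrophils, had 1795, 834 and 1032 with DNFB, against 443, 259.6 and 462 with H2O2 and 29.5, 41.4 and 38.6 in non-treated cells (2.99-fold, log2 1.58 ± 0.31 SE, adjusted p = 0.0018), and Ppbp, another CXCR2 ligand, was 1.86-fold higher (log2 0.90 ± 0.18 SE, adjusted p = 0.00164).

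Among 20 interleukins and polarising cytokines 3 were higher and 2 lower. The count of higher genes fell to 1 without DNFB replicate 1. Il1b, a cytokine needed for skin sensitisation in mice, had 1470.1, 692 and 932 with DNFB, against 725, 422 and 414 with H2O2 and 258, 229.7 and 265 in non-treated cells (1.93-fold, log2 0.95 ± 0.23 SE, adjusted p = 0.00769). DNFB replicate 2 was below H2O2 replicate 1, so the groups overlapped, and without DNFB replicate 1, the brightest array, it no longer passed (log2 0.66). Il1r2, the decoy receptor of interleukin 1, had 30585, 27956 and 26549.6 with DNFB, against 15085, 15322 and 15089 with H2O2 and 15164, 15471 and 14294 in non-treated cells. H2O2 and non-treated arrays lay together and DNFB stood above (1.87-fold, log2 0.90 ± 0.09 SE, adjusted p = 2.14e-06). Il18, a relative of interleukin 1 that caspases activate, was lower, with 823, 739.7 and 832 with DNFB, against 1829, 1694 and 1564 with H2O2 and 856, 701 and 699.6 in non-treated cells (2.1-fold lower, log2 -1.07 ± 0.14 SE, adjusted p = 5.51e-05), here with DNFB level with non-treated cells. Hbegf, an EGF receptor ligand counted in this list, was 2.93-fold lower (log2 -1.55 ± 0.21 SE, adjusted p = 5.35e-05). Il23a, a subunit of interleukin 23, had 469.7, 374 and 280.3 with DNFB, against 502, 279.7 and 253 with H2O2 and 20, 20.6 and 20.9 in non-treated cells and did not pass between the compounds (log2 0.15 ± 0.39 SE, adjusted p = 0.858). Tnf had 172, 439.6 and 402 with DNFB and 592, 819.8 and 856 with H2O2 and did not pass (log2 -1.21 ± 0.46 SE, adjusted p = 0.0843).

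All 3 chains of the lipopolysaccharide receptor were higher with DNFB. Of 19 Toll-like receptor and inflammasome genes 6 were higher and 2 lower, with a median of 0.248. With 1 array left out 4 to 5 were higher, and 1 was lower without DNFB replicate 1, DNFB replicate 2 or H2O2 replicate 3 or with median centring. Ly96, the MD-2 subunit that binds lipopolysaccharide, had 934, 1213 and 1059 with DNFB, against 442, 389 and 384 with H2O2 and 265, 250 and 261 in non-treated cells (2.57-fold, log2 1.36 ± 0.20 SE, adjusted p = 1.09e-04). Cd14, which hands lipopolysaccharide to it, had 14064, 13200.0 and 14434 with DNFB, against 5888, 8184 and 7181 with H2O2 and 1443, 1331 and 1159 in non-treated cells. Both compounds were above non-treated cells, and DNFB was 1.98-fold above H2O2 (log2 0.98 ± 0.14 SE, adjusted p = 7.75e-05). Tlr4, the signalling chain, had 628, 1003 and 589.6 with DNFB, against 313, 409 and 373 with H2O2 and 683, 905 and 703 in non-treated cells (1.94-fold, log2 0.96 ± 0.29 SE, adjusted p = 0.0303). It no longer passed without DNFB replicate 2 (log2 0.72) or without H2O2 replicate 1, 2 or 3 (0.86, 1.04 and 0.98), nor with the mean of its probe sets (0.56). Irak1, the kinase below these receptors, was 2.09-fold higher on its brightest probe set (log2 1.06 ± 0.21 SE, adjusted p = 0.0021). Its other 3 kept probe sets had differences of 0.21, 0.14 and 0.28 that did not pass, and the mean of all 4 passed at 0.42. Casp4, the caspase that senses lipopolysaccharide inside the cell, was 2.35-fold lower, with 579, 611 and 635 with DNFB, against 1582, 1345 and 1433 with H2O2 and 486, 428 and 498 in non-treated cells (log2 -1.23 ± 0.13 SE, adjusted p = 3.42e-06).

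Of 17 C-type lectins and scavenger receptors 4 were higher and none lower, with a median of 0.429, Clec4d and Cd207 among them. The count was 2 without DNFB replicate 3. In matrix breakdown, 4 of 22 genes were higher and 1 lower (22.7% passed, against 14.7% of all tested genes). Mmp12, the macrophage elastase whose window is printed above, had 6980.4, 5439 and 7351 with DNFB, against 1473, 1299 and 1609.6 with H2O2 and 193, 246 and 265 in non-treated cells (4.46-fold, log2 2.16 ± 0.17 SE, adjusted p = 1.15e-07). Mmp10, stromelysin 2, had 1191, 1057 and 1110.2 with DNFB, against 189, 309 and 236 with H2O2 and 41.6, 95.9 and 14.2 in non-treated cells (4.45-fold, log2 2.15 ± 0.42 SE, adjusted p = 0.00153). The 3 groups stood apart in both, with DNFB highest and non-treated cells lowest. The plasminogen system differed both ways: Plaur, the urokinase receptor, had 3337, 3728 and 3999.8 with DNFB, against 1833, 1835 and 1362 with H2O2 and 378, 634 and 376 in non-treated cells (2.2-fold higher, log2 1.14 ± 0.20 SE, adjusted p = 6.75e-04), while Plau, the urokinase that it binds, had 310.4, 417 and 432 with DNFB, against 1315, 1447 and 1548 with H2O2 and 327, 409.8 and 274 in non-treated cells (3.64-fold lower, log2 -1.86 ± 0.18 SE, adjusted p = 1.46e-06). For Plau only the H2O2 arrays stood apart.

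Of 24 adhesion genes 6 were higher and Icam1 was the 1 lower gene, against 8.75% and 6% of all tested genes. The median was -0.009, with 12 above 0 and 12 below. With 1 array left out 4 to 6 were higher. Cd151, a tetraspanin that binds laminin receptors, was 2.27-fold higher (log2 1.18 ± 0.14 SE, adjusted p = 1.23e-05). A dimmer probe set of Cd151 had a log2 difference of -0.19 that did not pass. The activated leukocyte adhesion molecule Alcam had 7096, 8501 and 6831 with DNFB, against 3842, 3390.1 and 3934 with H2O2 and 4048, 5160.0 and 4497 in non-treated cells (2-fold, log2 1.0 ± 0.14 SE, adjusted p = 5.58e-05). Itgav, the alpha V integrin, was 1.87-fold higher (log2 0.90 ± 0.13 SE, adjusted p = 8.15e-05), but not with the mean of its probe sets (0.45). Itgb2, the beta chain of the ICAM1 receptor LFA-1, had 3014, 2564 and 2368 with DNFB, against 1575, 1750.0 and 1283 with H2O2 and 3218, 2629.7 and 2238 in non-treated cells (1.72-fold, log2 0.78 ± 0.15 SE, adjusted p = 0.00157), with DNFB level with non-treated cells and H2O2 below. In prostaglandin signalling 2 of 15 genes were higher and 2 lower, and 1 was higher without DNFB replicate 2, DNFB replicate 3 or H2O2 replicate 1. The phospholipase Pla2g4a, which frees arachidonic acid, was 2.7-fold higher, with 6691, 7488 and 6236 with DNFB, against 2449, 2424 and 2633 with H2O2 and 3583, 3733 and 3111 in non-treated cells (log2 1.44 ± 0.14 SE, adjusted p = 9.73e-07). The prostaglandin E2 receptors Ptger4 (2.61-fold lower, log2 -1.38 ± 0.13 SE, adjusted p = 7.39e-07) and Ptger3 (1.74-fold lower, log2 -0.80 ± 0.12 SE, adjusted p = 1.31e-04) were lower. Ptgs2, the inducible cyclooxygenase, had 132, 256 and 134 with DNFB and 72, 118 and 150.1 with H2O2 and did not pass (log2 0.55 ± 0.49 SE, adjusted p = 0.53).

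Interferon-stimulated genes had 7 of 31 lower with DNFB and none higher, with a median of -0.666 and 30 of the 31 below 0. Single arrays moved the count: it was 4 without DNFB replicate 1, 3 without DNFB replicate 3, 4 without H2O2 replicate 1, 4 without H2O2 replicate 2 and 14 without H2O2 replicate 3, and 3 with median centring. Ifit2, an antiviral RNA-binding protein, had 151, 198 and 78 with DNFB, against 594, 563 and 261 with H2O2 and 519, 584 and 476 in non-treated cells (3.09-fold lower, log2 -1.63 ± 0.35 SE, adjusted p = 0.00381). H2O2 replicate 3 was the dimmest H2O2 array. Gbp2, a guanylate-binding protein, had 192, 278 and 165 with DNFB, against 527, 475 and 373 with H2O2 and 410.0, 522 and 356 in non-treated cells (2.11-fold lower, log2 -1.08 ± 0.24 SE, adjusted p = 0.00534), and did not pass with the mean of its probe sets (-0.76). For both, DNFB lay below non-treated cells while H2O2 overlapped them. Usp18, which removes the ubiquitin-like protein ISG15, was below non-treated cells with either compound, with 2335, 2097 and 1997 with DNFB, against 4061, 5916 and 2844 with H2O2 and 8822, 8183 and 8194 in non-treated cells (1.91-fold lower with DNFB, log2 -0.93 ± 0.21 SE, adjusted p = 0.00499). Irf8, a factor of the dendritic cell lineage that interferon also induces, was 1.91-fold lower, with 2709, 2437 and 2084 with DNFB, against 4461, 4748 and 4581 with H2O2 and 2091, 2169.9 and 1801 in non-treated cells (log2 -0.93 ± 0.12 SE, adjusted p = 3.55e-05), where H2O2 alone stood above.

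Of 14 class I presentation genes 5 were lower and none higher, and all 14 were below 0 with a median of -0.263. The 5 became 3 without DNFB replicate 1, DNFB replicate 3 or H2O2 replicate 1, and 2 without H2O2 replicate 2 or with median centring. The immunoproteasome subunits Psmb9 and Psmb10, which shape peptides for class I, had 2721, 2378 and 2631 with DNFB, against 3785, 4699 and 3567 with H2O2 and 5452, 5200.4 and 4686 in non-treated cells for Psmb9 (1.55-fold lower, log2 -0.63 ± 0.11 SE, adjusted p = 8.42e-04) and were 1.56-fold lower for Psmb10 (log2 -0.64 ± 0.14 SE, adjusted p = 0.00484). But for H2O2 replicate 2, the H2O2 arrays lay below every non-treated array for both, and the DNFB arrays lay below all others. Of 14 class II presentation genes 3 were lower and 1 higher, and none was higher without DNFB replicate 1 or H2O2 replicate 2. H2-DMb2, a chaperone that loads peptides on class II, was 1.6-fold lower, with 974, 1298 and 1129 with DNFB, against 1707, 2023 and 1728 with H2O2 and 2512, 2746 and 2538 in non-treated cells (log2 -0.68 ± 0.14 SE, adjusted p = 0.0021).

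**Figure D5:**
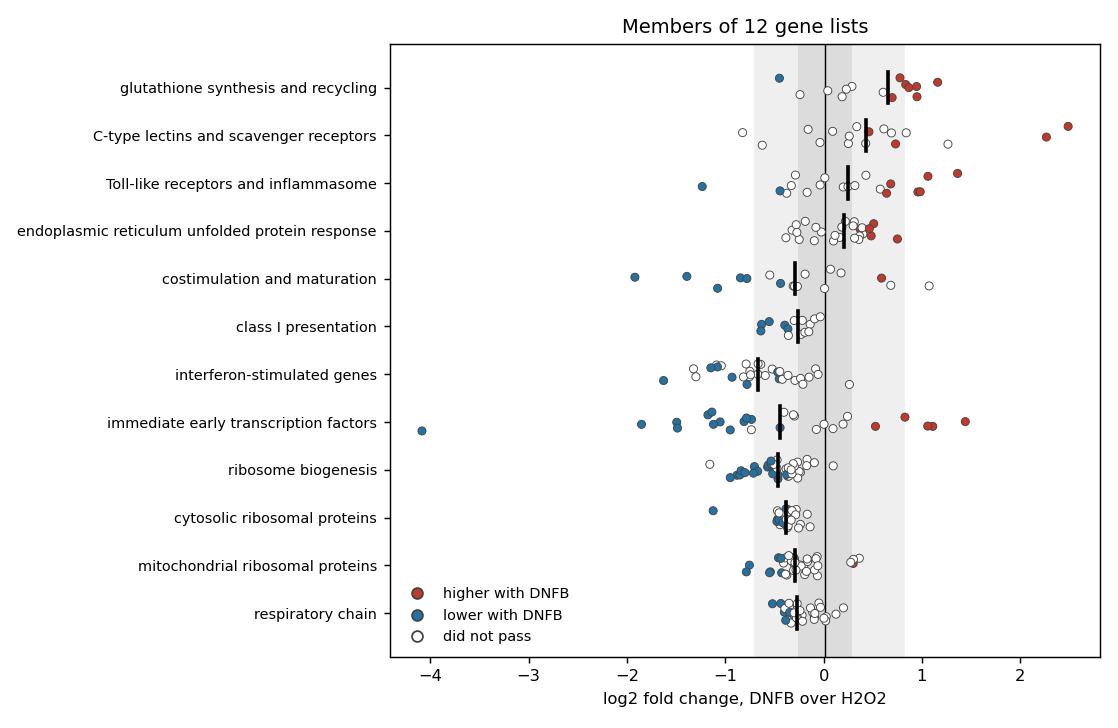
Each point is a tested member of 1 of 12 gene lists, placed by its log2 fold change of DNFB over H2O2, with red for higher, blue for lower and white for not passed, and a black bar at the list's median. The dark and light grey bands hold the middle 50% and the middle 90% of all 12701 genes, from -0.25 to 0.28 and from -0.69 to 0.82. The points of ribosome biogenesis lie left of 0 except for 1, and those of glutathione synthesis mostly right of it.

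The growth machinery gave the largest count on the lower side. Of 40 tested ribosome biogenesis genes, the nucleolar factors that make and fold ribosomal RNA, 20 were lower with DNFB and none higher, with a median of -0.468 and 39 of the 40 below 0. With 1 array left out 14 to 18 were lower, with median centring 15 and with quantile normalization 19. Wdr43, a factor of the small subunit processome, had 2089, 1832 and 1745 with DNFB, against 3309, 3437 and 3395 with H2O2 and 2229, 2032 and 1953 in non-treated cells (1.79-fold lower, log2 -0.84 ± 0.12 SE, adjusted p = 9.37e-05). DNFB lay close to non-treated cells and H2O2 above. Dkc1, the pseudouridine synthase of small nucleolar particles, had 3142, 2999 and 3424 with DNFB, against 5534, 5596 and 5535 with H2O2 and 6590.0, 6265 and 6776 in non-treated cells (1.74-fold lower, log2 -0.80 ± 0.11 SE, adjusted p = 5.74e-05), with DNFB clearly below the other groups. Rrs1 was 1.8-fold lower (log2 -0.85 ± 0.14 SE, adjusted p = 3.86e-04), Nip7 1.84-fold (log2 -0.88 ± 0.17 SE, adjusted p = 0.00175), Rrp15 1.93-fold (log2 -0.95 ± 0.16 SE, adjusted p = 4.06e-04) and the nucleolar phosphoprotein Nolc1 1.64-fold (log2 -0.71 ± 0.12 SE, adjusted p = 3.33e-04).

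All 28 tested cytosolic ribosomal protein genes were below 0, with a median of -0.380, 8 of them lower and none higher. Their brightness was high: 23 of the 28 had a mean log2 signal of 14 or more, the range in which the median of all genes was -0.32. Under quantile normalization 1 was lower, and under median centring 1. The count was also 3 without DNFB replicate 1, 1 without DNFB replicate 2, and 2 without DNFB replicate 3, H2O2 replicate 2 or H2O2 replicate 3. Rpl12, a protein of the large subunit, had the largest difference in the list, with 569, 591 and 780.4 with DNFB, against 1375, 1374 and 1489 with H2O2 and 650.2, 516 and 715 in non-treated cells (2.18-fold lower, log2 -1.12 ± 0.15 SE, adjusted p = 4.21e-05). The H2O2 arrays alone stood above, and DNFB and non-treated arrays overlapped. The 1 kept probe set of Rpl12 was dim for this list, with a mean log2 signal of 9.64 over all 15 arrays. The list median was 15.03 over the DNFB and H2O2 arrays.

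Mitochondrial ribosomal protein genes, which are not among the brightest (none of 38 reached 14), had 8 lower and 1 higher, with a median of -0.291. Under quantile normalization 8 were lower and under median centring 3, with none higher under median centring. The count was 4 without DNFB replicate 1, DNFB replicate 2 or H2O2 replicate 3 and 5 without H2O2 replicate 2. Mrpl19 was 1.69-fold lower, with 716, 743 and 794 with DNFB, against 1241, 1359 and 1232 with H2O2 and 1379.8, 1209.8 and 1409 in non-treated cells (log2 -0.75 ± 0.13 SE, adjusted p = 4.62e-04), and Mrpl37 1.72-fold lower (log2 -0.79 ± 0.17 SE, adjusted p = 0.00409). In both, DNFB was below non-treated cells and H2O2 overlapped them.

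Protein stress genes were divided. Of 22 ATF4 and amino acid response genes 5 were lower and 2 higher, and 1 was higher without DNFB replicate 1. Atf4 itself, the factor that the integrated stress response brings up, had 8887, 7058 and 7915 with DNFB, against 11586, 12424 and 11661 with H2O2 and 5118, 3544 and 4178 in non-treated cells (1.5-fold lower, log2 -0.58 ± 0.12 SE, adjusted p = 0.00303). Both compounds were above non-treated cells and H2O2 was the higher. Nupr1, a stress-induced chromatin protein, was 2.49-fold lower, with 616, 678 and 822 with DNFB, against 1833, 1869 and 1600.0 with H2O2 and 376, 463 and 321 in non-treated cells (log2 -1.31 ± 0.18 SE, adjusted p = 6.14e-05). Ddit4, an inhibitor of the growth kinase mTORC1, was 2.53-fold higher, with 4114, 2269.8 and 2548 with DNFB, against 1558, 1273 and 719 with H2O2 and 3290.1, 2211 and 1733 in non-treated cells (log2 1.34 ± 0.25 SE, adjusted p = 0.00103). Ddit3, which encodes CHOP, had 1331, 1235 and 1159 with DNFB and 1765, 2286 and 1524 with H2O2 and did not pass (log2 -0.56 ± 0.19 SE, adjusted p = 0.0543). The serine to glycine enzyme Shmt2 (1.41-fold lower, log2 -0.49 ± 0.11 SE, adjusted p = 0.00343) and the glutamine importer Slc1a5 (1.49-fold lower, log2 -0.57 ± 0.13 SE, adjusted p = 0.00506) were lower, but dimmer probe sets of Shmt2 had differences of -0.41, 0.18 and 0.16 that did not pass.

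Heat shock chaperones were 4 higher and 5 lower of 25, counts that rested on single arrays and on the scaling: they were 3 higher and 1 lower with median centring, and 5 higher and 3 lower with quantile normalization. Without DNFB replicate 1 they were 6 higher and 0 lower, and without DNFB replicate 2 they were 1 higher and 5 lower. The counts were 2 higher and 1 lower without DNFB replicate 3 or H2O2 replicate 3, 2 higher and 4 lower without H2O2 replicate 1, and 4 higher and 0 lower without H2O2 replicate 2. Hspa1b, an inducible HSP70, had 2187, 16908 and 12340.4 with DNFB, against 9739.8, 17043 and 12562 with H2O2 and 151, 491 and 405 in non-treated cells. DNFB replicate 1 lay far below the other DNFB arrays, and the difference did not pass (log2 -0.73 ± 0.51 SE, adjusted p = 0.397). Dnajb1, the partner of HSP70, was 1.85-fold lower (log2 -0.89 ± 0.23 SE, adjusted p = 0.0111), and no longer passed without DNFB replicate 1 (log2 -0.52) or without H2O2 replicate 2 (-0.65).

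Few genes of growth arrest and cell death passed. Of 23 p53 targets 4 were higher and none lower (17.4% passed, against 14.7% of all tested genes), and 3 to 5 were higher with 1 array left out. Besides Trp53inp1, the cyclin Ccng1 was 1.51-fold higher (log2 0.59 ± 0.13 SE, adjusted p = 0.00381), but not with the mean of its probe sets (0.30). Cdkn1a, the p21 inhibitor of cyclin-dependent kinases, had 8038, 7251 and 6445 with DNFB, against 8449, 9375 and 7159 with H2O2 and 1337, 1318 and 958 in non-treated cells. Both compounds stood far above non-treated cells, and the difference between them did not pass (log2 -0.20 ± 0.13 SE, adjusted p = 0.375). Of 22 BCL2 family and caspase genes 3 were higher and none lower (13.6% passed). Apaf1, the scaffold of the apoptosome, was 1.61-fold higher (log2 0.69 ± 0.13 SE, adjusted p = 0.0012), and its caspase Casp9 2.14-fold higher (log2 1.10 ± 0.20 SE, adjusted p = 0.0011), while a dimmer probe set of Casp9 had a log2 difference of -0.67 that did not pass, and neither did the mean of both (0.22). For Apaf1 and Casp9 the DNFB arrays lay among or close to the non-treated ones, with H2O2 below.

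In the cell cycle, 4 of 27 G1 genes were higher, and 3 to 4 with 1 array left out. The 1 lower gene (Ccnd2) did not pass without DNFB replicate 2 or 3 without H2O2 replicate 1 or 2, with median centring, or with the mean of its probe sets (-0.16), and without DNFB replicate 1 there were 2 lower genes. Cdkn2b, the p15 inhibitor of CDK4 and CDK6, had 2072, 1988 and 2051 with DNFB, against 1177, 929 and 968 with H2O2 and 882, 889 and 884 in non-treated cells (1.98-fold, log2 0.99 ± 0.12 SE, adjusted p = 1.72e-05). The retinoblastoma relative Rbl1 had 1185, 1079 and 1002 with DNFB, against 627, 484 and 639.7 with H2O2 and 2090.2, 2024 and 2009.6 in non-treated cells, so both compounds were below non-treated cells and DNFB was 1.85-fold above H2O2 (log2 0.89 ± 0.13 SE, adjusted p = 1.20e-04). Of 26 mitosis genes 3 were higher and 1 lower, with a median of 0.015. The 1 lower gene (Top2a) did not pass without DNFB replicate 3 or H2O2 replicate 2, with median centring, or with the mean of its probe sets (-0.12), and 3 were lower with quantile normalization. Cenpa, the histone of the centromere, had 7069, 6435 and 6999 with DNFB, against 2778, 2759 and 2313 with H2O2 and 3598, 3485 and 3967 in non-treated cells (2.61-fold, log2 1.38 ± 0.12 SE, adjusted p = 1.8e-07). Of 21 genes of the MYC network 5 were lower and 3 higher. With median centring 2 were lower and 3 higher, and 2 were lower without DNFB replicate 1, 3 without DNFB replicate 3 or H2O2 replicate 2, and 1 without H2O2 replicate 3. The MYC antagonists Mxi1 (2.63-fold, log2 1.39 ± 0.15 SE, adjusted p = 6.16e-06) and Mxd4 (2.16-fold, log2 1.11 ± 0.15 SE, adjusted p = 6.43e-05) were higher, Mxd4 not so with the mean of its probe sets (0.78). Myc itself had 3452, 4001 and 3374 with DNFB, against 4689.6, 4884 and 5122 with H2O2 and 6126, 5313 and 5842 in non-treated cells (1.36-fold lower, log2 -0.44 ± 0.13 SE, adjusted p = 0.0236) and no longer passed without DNFB replicate 1 (log2 -0.41), DNFB replicate 3 (-0.40), H2O2 replicate 2 (-0.44) or H2O2 replicate 3 (-0.41).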

How the data were processed

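RNA of the cells was measured on 15 Affymetrix mouse arrays, 3 for each of 5 groups taken from the titles. The values are MAS5 signal intensities from Affymetrix Expression Console, per the submitters' processing notes, deposited by the authors as 1 linear intensity per probe set and array. The deposited arrays carry 2 trimmed means, 250 on 6 arrays and 500 on 9, so each was rescaled here to a 2% trimmed mean of 500. The 15 added as a pseudocount kept dim signals from dominating. Of 45101 probe sets, 64 controls were left out, 34945 had 1 gene symbol in the platform annotation, 932 several and 9160 none, and 34741 symbols were matched to RefSeq by gene ID. Probe sets with a mean log2 value over all 15 arrays at or above the 40th percentile (6.22) were kept, 27022 in all. Each gene was taken from its probe set of highest mean, so 12701 genes were tested. Of the named genes that passed, 18 had another kept probe set of opposite sign, and for 2 of those it passed too.

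Group means were fitted on all 15 arrays with limma 3.58.1 in R 4.3.3 (eBayes with a trend, 10 residual degrees of freedom before moderation), with Benjamini-Hochberg adjustment over all genes. The fit was tested on simulated data. Named genes are the 15 largest differences each way without overlapping arrays, up to 6 passing members of each of 47 lists by size, and a fixed set of markers whatever their values (of these Ccr7 and Il6 were too dim to be tested), of which those described here are a part. Members and lists were chosen with earlier results of these data known. The alternatives were another pseudocount, filter, scaling, normalization, probe set rule, set of arrays, block, spread model, weights, threshold, a left-out array and an RNA quality covariate. Start-site windows and symbols came from RefSeq tables.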

Additional observations from a re-analysis of the deposited data

How the results depend on the processing

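No gene that passed changed sign and passed the other way under any of the 23 alternatives. The lower genes were 407 with median centring. With the values as deposited 26 genes passed, 4 higher and 22 lower, and all 26 were at least 2-fold apart. Among the arrays with a scaling target of 250, 719 passed (492 higher, 227 lower), and among those with a target of 500, 353 passed (217 higher, 136 lower, 213 at least 2-fold apart). At an adjusted p below 0.01, 924 passed (604 higher, 320 lower). With 1 array left out in turn, 1251 to 1549 genes passed, 750 to 942 higher and 455 to 607 lower, and 301 to 384 were at least 2-fold apart. Fits on 2 arrays of a group tested the same genes with fewer samples. The beta-actin ratio as a covariate, chosen after seeing the data, gave 1183 higher and 871 lower. Labels number the replicates, and same-numbered arrays correlated at 0.144, 0.082 and 0.015 in their deviations from the group means. Each DNFB array correlated best with the H2O2 array of its own number. H2O2 replicate 3, however, correlated best with DNFB replicate 2 (0.029). The titles state no pairing, and the number was not taken as one. The replicate block gave 1297 higher and 1004 lower and kept all 1873 genes that passed without it.

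Of the 152 genes named here, 137 passed, and 124 of those passed with every array left out in turn. With the values as deposited 119 of them did not pass. None of those that passed changed sign. With the mean of a gene's probe sets in place of the brightest, 18 of those that passed no longer did, 3 that had not passed then did (Cd80 at 0.79 against 0.18, Ddit3 at -0.62 against -0.56 and Hspa5 at -0.31 against -0.38), and 4 others that passed both ways moved by over 1.5 times (Cdk5r1 at -1.61 against -2.42, Cyp1b1 at -1.16 against -2.23, Etv4 at -1.28 against -1.99 and Irak1 at 0.42 against 1.06). Of the 15 that did not pass, 8 changed sign in some setting. Cd80 stood at 0.18 and moved to -0.15 with the values as deposited, and -0.02 on the arrays with a scaling target of 250. Cybb stood at -0.64 and moved to 0.67 on the arrays with a scaling target of 250. Hspa1b stood at -0.73 and moved to 0.21 on the arrays with a scaling target of 500, and between -1.29 and 0.18 with 1 array left out. Il23a stood at 0.15 and moved to -0.16 with the values as deposited, -0.45 on the arrays with a scaling target of 250, and between -0.03 and 0.44 with 1 array left out. Jun stood at 0.24 and moved to -0.09 with the values as deposited, and -0.04 on the arrays with a scaling target of 500. Keap1 stood at 0.17 and moved to -0.16 with the values as deposited. Mt1 stood at 0.02 and moved to -0.32 with the values as deposited, -0.16 with the mean of the probe sets of a gene, -0.02 with the scaling target as a block, -0.03 on the arrays with a scaling target of 500, and between -0.04 and 0.05 with 1 array left out. Nfe2l2 stood at -0.07 and moved to 0.03 on the arrays with a scaling target of 500, and between -0.14 and 0.01 with 1 array left out. The cause was not tested. The number of arrays limits the precision, dim genes near the pseudocount have folds that depend on it, and folds of the brightest genes depend on the normalization.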

Other observations

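Over all tested genes 8.75% were higher with DNFB and 6% lower, 14.7% in either direction. The list counts below are to be read beside these shares. Of 26 autophagy genes 5 were higher and none lower (19.2% passed), with a median of 0.057, and 3 were higher without DNFB replicate 1, DNFB replicate 2 or H2O2 replicate 1. Gabarapl1, a membrane protein of the autophagosome, had 6405, 5829.9 and 7454 with DNFB, against 4348, 4664 and 4037 with H2O2 and 2747, 2344 and 2247 in non-treated cells (1.5-fold, log2 0.59 ± 0.11 SE, adjusted p = 0.00154), so both compounds were above non-treated cells and DNFB was the higher. Nbr1, a receptor that brings cargo to it, was 1.48-fold higher (log2 0.57 ± 0.13 SE, adjusted p = 0.00503), and the starter kinase Ulk2 was 1.76-fold higher (log2 0.81 ± 0.20 SE, adjusted p = 0.00811), with H2O2 below non-treated cells for Ulk2 (log2 -0.85, adjusted p = 0.00267). With the mean of its probe sets Ulk2 did not pass (0.47). Of 29 lysosome genes 4 were higher and 2 lower (20.7% passed). The higher genes were 2 without H2O2 replicate 3, and 1 was lower without DNFB replicate 1, DNFB replicate 3 or H2O2 replicate 2, or with quantile normalization or median centring. Npc1, the cholesterol exporter of the lysosome, had 732, 794 and 807 with DNFB, against 309, 338 and 505 with H2O2 and 546, 654 and 509 in non-treated cells (2.03-fold, log2 1.02 ± 0.24 SE, adjusted p = 0.00688), with every DNFB array above all others. Atp6v1c1, a subunit of the lysosomal proton pump, was 1.48-fold lower, with 7078, 7195 and 7733 with DNFB, against 10329, 11181 and 11016 with H2O2 and 7677, 6216 and 6829.9 in non-treated cells (log2 -0.56 ± 0.10 SE, adjusted p = 8.12e-04), where H2O2 alone stood above.

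Of 26 genes of the unfolded protein response of the endoplasmic reticulum 5 were higher and none lower, with a median of 0.204. The count was 2 without DNFB replicate 1, 1 without DNFB replicate 2, 3 without H2O2 replicate 2 and 1 without H2O2 replicate 3, and it was 3 with median centring. Eif2ak3, the sensor kinase PERK, had 1931, 1871 and 1465 with DNFB, against 989, 1194 and 924 with H2O2 and 2194, 1911 and 1675 in non-treated cells (1.68-fold, log2 0.75 ± 0.13 SE, adjusted p = 7.05e-04), with DNFB among the non-treated arrays and H2O2 below. Hspa5, the main chaperone of that compartment, had 24957, 30536 and 23697 with DNFB, against 31234, 37469 and 34230.3 with H2O2 and 26708, 25753 and 23468 in non-treated cells and did not pass (log2 -0.38 ± 0.13 SE, adjusted p = 0.0517). Of 32 proteasome subunits 3 were lower and none higher (9.4% passed, against 14.7% of all tested genes), and 2 were lower with quantile normalization or median centring. Psmd8 was among the 3 (1.48-fold lower, log2 -0.56 ± 0.12 SE, adjusted p = 0.00354).

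Of 34 respiratory chain genes 6 were lower and none higher, with a median of -0.266, and 7 of the 34 had a mean log2 signal of 14 or more. The count was 1 without DNFB replicate 1, 0 without DNFB replicate 2, and 3 without H2O2 replicate 1 or 2, and it was 4 under quantile normalization and 2 under median centring. Cyc1, the cytochrome c1 of complex III, had 6415, 5972 and 7078 with DNFB, against 9131, 8911 and 8243 with H2O2 and 9531, 8535 and 8822 in non-treated cells (1.35-fold lower, log2 -0.43 ± 0.11 SE, adjusted p = 0.0112) and did not pass without DNFB replicate 2 (log2 -0.38). Of 19 aminoacyl-tRNA synthetases 4 were lower and 1 higher. With median centring 1 was lower and none higher, and with quantile normalization 4 were lower and none higher. The lower genes were 1 without DNFB replicate 1, DNFB replicate 2 or H2O2 replicate 2 and 2 without DNFB replicate 3, and none was higher with any 1 array left out. Kars, the lysine enzyme, was 1.46-fold lower (log2 -0.55 ± 0.13 SE, adjusted p = 0.00644).

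Of 23 dendritic cell transcription factors and growth factor receptors 5 were lower and 2 higher, and with median centring 2 were lower and 2 higher. The lower genes were 2 without DNFB replicate 1 and 3 without DNFB replicate 3, H2O2 replicate 1 or H2O2 replicate 2, and the higher genes were 0 without DNFB replicate 1 or 2 and 1 without H2O2 replicate 2. Id1, an inhibitor of helix-loop-helix factors, had 545, 321 and 668 with DNFB, against 1070.3, 1137 and 842 with H2O2 and 1249, 943 and 1056 in non-treated cells (2.03-fold lower, log2 -1.02 ± 0.20 SE, adjusted p = 0.0021), with DNFB below all arrays of the other groups. In JAK-STAT feedback 2 of 22 were higher and 2 lower (18.2% passed, against 14.7% of all tested genes). Of these, 1 was higher without DNFB replicate 2 and 1 lower without H2O2 replicate 2. Stat3, the factor downstream of interleukin 6 and 10 receptors, was 1.57-fold higher (log2 0.65 ± 0.14 SE, adjusted p = 0.00335), and the phosphatase Ptpn2 was 1.48-fold lower (log2 -0.56 ± 0.11 SE, adjusted p = 0.00181), but not with the mean of its probe sets (-0.41). Of 7 subunits of the phagocyte NADPH oxidase, which makes superoxide, 1 was higher and 1 lower, with a median of -0.326 and 6 of the 7 below 0. The higher gene, the cytosolic subunit Ncf4, had 12348, 11880.1 and 12023 with DNFB, against 8711, 9042 and 7895 with H2O2 and 12652, 12722 and 11931 in non-treated cells (1.41-fold, log2 0.50 ± 0.10 SE, adjusted p = 0.00172). The lower gene, the small GTPase Rac1, had 18612, 14865 and 17148 with DNFB, against 22426, 21698 and 23682 with H2O2 and 19704, 14456 and 18009 in non-treated cells (1.34-fold lower, log2 -0.43 ± 0.13 SE, adjusted p = 0.0284). Rac1 did not pass with quantile normalization, with median centring, or without DNFB replicate 2 or 3 or H2O2 replicate 1, 2 or 3. The oxidase's membrane subunit Cybb had 89.4, 131 and 168 with DNFB and 71.9, 271 and 412 with H2O2, with overlapping arrays (log2 -0.64 ± 0.53 SE, adjusted p = 0.482).

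In lipid synthesis 2 of 29 genes were higher and 2 lower (13.8% passed, against 14.7% of all tested genes). With any 1 array left out or with quantile normalization 1 was higher, and with median centring 1 was lower. Scd2, a fatty acid desaturase, had 6814, 6742 and 6022 with DNFB, against 9481, 10163 and 9969 with H2O2 and 19134, 17257 and 17953 in non-treated cells (1.51-fold lower, log2 -0.60 ± 0.13 SE, adjusted p = 0.0033), so non-treated cells had the most and DNFB the least. Of 26 genes of glycolysis and the hypoxia response 3 were higher and none lower (11.5% passed). The count was 0 without DNFB replicate 1 and 1 without DNFB replicate 2 or H2O2 replicate 3. Vegfa, a growth factor of vessels, was 1.77-fold higher, with 2394, 2064 and 1785 with DNFB, against 1199, 1256 and 1039 with H2O2 and 805, 927 and 475 in non-treated cells (log2 0.82 ± 0.20 SE, adjusted p = 0.00935), and did not pass without DNFB replicate 1 (log2 0.72) or with the mean of its probe sets (0.53). Of 33 DNA replication genes 1 was higher and 1 lower, and the higher, the clamp loader subunit Rfc4, had 1539, 1342 and 1659 with DNFB, against 997, 758 and 897 with H2O2 and 1641, 1498 and 2136 in non-treated cells (1.7-fold, log2 0.77 ± 0.18 SE, adjusted p = 0.00541), where H2O2 alone lay below. Of the 17 zinc transport and metallothionein genes 3 were higher and none lower, and 1 was higher without DNFB replicate 2, H2O2 replicate 1 or H2O2 replicate 3 or with median centring.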
